A study of Rattus norvegicus with 6 samples.

Results

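The genes described here write, erase and read DNA methylation: Dnmt1, Uhrf1, Dnmt3a and Dnmt3b, which place methyl groups on cytosine or guide their placing, Tet1, Tet2 and Tet3, which oxidise them, and Mbd1 and Mbd2, which bind them. They were chosen by symbol, as the 9 rows of these names among the 33294 genes in the count files, and all 9 passed the filter on low counts. The libraries were bulk RNA-seq of whole pituitary glands of Sprague-Dawley male rats, 3 in the nicotine group and 3 in the control group, taken in adult life at 11 weeks. The dams of the nicotine group carried a pump under the skin with nicotine tartrate in saline, 6 mg/kg/day, and the dams of the control group one with sterile saline. The pump was built to last 28 days, and birth was 13 days after surgery, on gestational day 19 by the labels. The exposure thus reached the offspring through the dam, and whether the rats of a group had different dams is not stated, so p-values cover the spread between these 3 and 3 rats only.

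In mammals most methylation lies on the cytosine of CpG dinucleotides. At replication UHRF1 recognises the half-methylated daughter duplex and brings DNMT1 to it, which copies the mark, while DNMT3A and DNMT3B can methylate sites that carried no mark. TET enzymes turn 5-methylcytosine into 5-hydroxymethylcytosine and further oxidised forms that base excision repair can replace with cytosine, and proteins with a methyl-CpG-binding domain recruit repressive complexes to the methylated sites. In the pituitary, an endocrine gland of mostly non-dividing cells, DNA methylation is known to take part in keeping hormone genes restricted to their own cell types.

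The start sites of 8 of the 9 genes were matched by symbol in RefSeq for build GRCr8. Each window had 300 bases, and the 33469 windows of the rat gene set served as background. The windows of 2 pairs of genes are shown, Dnmt1 with Uhrf1 because their proteins work together at replication, and Dnmt3a with Tet3 because their levels followed each other most closely over the libraries. For a gene with several start sites the window with the most CpG is given. Capitals mark exact matches to an NRF1 core (CGCATGCG), an E2F site (TTTCGCGC, TTTGGCGC or TTTCCCGC) or a GC box (GGGCGG), each searched on both strands, and no 2 matches in these 4 windows overlapped.
Dnmt1, chr8:27762792-27763091, minus strand: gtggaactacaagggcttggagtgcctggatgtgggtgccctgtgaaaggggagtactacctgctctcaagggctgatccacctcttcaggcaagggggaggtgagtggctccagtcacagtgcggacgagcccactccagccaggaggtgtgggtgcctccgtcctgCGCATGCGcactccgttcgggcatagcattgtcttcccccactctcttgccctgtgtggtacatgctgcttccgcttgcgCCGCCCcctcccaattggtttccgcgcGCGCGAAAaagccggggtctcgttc
Uhrf1, chr9:1222936-1223235, plus strand: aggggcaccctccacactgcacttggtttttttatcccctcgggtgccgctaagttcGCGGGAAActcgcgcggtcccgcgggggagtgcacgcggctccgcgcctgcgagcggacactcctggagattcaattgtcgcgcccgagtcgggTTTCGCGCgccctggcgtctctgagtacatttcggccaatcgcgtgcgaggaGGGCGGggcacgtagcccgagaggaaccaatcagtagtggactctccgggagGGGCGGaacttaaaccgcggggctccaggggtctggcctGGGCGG
Dnmt3a, chr6:32598352-32598651, plus strand: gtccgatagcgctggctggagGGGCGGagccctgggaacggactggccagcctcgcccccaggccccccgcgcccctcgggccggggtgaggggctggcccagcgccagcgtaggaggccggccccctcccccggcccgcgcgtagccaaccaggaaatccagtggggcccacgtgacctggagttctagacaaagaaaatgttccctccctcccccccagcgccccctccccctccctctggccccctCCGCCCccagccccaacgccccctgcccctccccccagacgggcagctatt
Tet3, chr4:117520996-117521295, minus strand: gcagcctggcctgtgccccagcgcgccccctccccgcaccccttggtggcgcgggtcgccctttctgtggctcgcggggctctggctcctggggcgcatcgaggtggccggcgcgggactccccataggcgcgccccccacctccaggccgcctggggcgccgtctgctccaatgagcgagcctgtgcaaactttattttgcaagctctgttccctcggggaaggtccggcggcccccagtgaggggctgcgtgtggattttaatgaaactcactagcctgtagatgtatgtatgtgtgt
The Dnmt1 window held 17 CpG, 1 NRF1 core at position -82 from the start site, 1 E2F site at position 26 and 1 GC box. The Uhrf1 window held 35 CpG, 2 E2F sites at positions -193 and -99, and 3 GC boxes. The Dnmt3a window held 21 CpG and 2 GC boxes, and the Tet3 window held 23 CpG and no match. Another Tet3 window, not shown and with 15 CpG, held 3 GC boxes at positions -210, -93 and -87. Among all windows the median was 7 CpG, 1.66% held an NRF1 core, 1.72% an E2F site and 33.1% a GC box. For Uhrf1 and Tet3 the choice of the window with the most CpG favoured values above this median. Their other windows held 8 and 13 CpG for Uhrf1 and 15, 3 and 3 for Tet3. The windows of Tet2 and of Mbd2 were the densest in CpG, with 39 each, and 96.2% of all windows had fewer. No window of the 8 genes held an ETS core (CCGGAAGT, in 3.81% of all windows) or a cyclic AMP site (TGACGTCA, in 1.83%). A match is a description of the letters, since neither factor binding nor DNA methylation was analysed here.

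Library totals ran from 28318383 to 85977002 counts, larger for each nicotine library than for the control library of the same number, whereas a list of read numbers in the study's supplement runs the other way. The groups may therefore be exchanged in the list or in the labels, which could not be settled here. The deposited labels were followed, and every direction below rests on them. The extraction note in the labels speaks of testes. The transcripts, however, were those of pituitary: 7 hormone genes (Gh1, Prl, Pomc, Cga, Tshb, Lhb and Fshb) summed to between 113538 and 176311 counts per 1000000 counts of the library (CPM) in each library, and 6 spermatid genes to between 0.0496 and 0.151 CPM, with Tnp2 and Acrv1 at 0 in all 6. Nicotine replicate 2 stood farthest from the other libraries, with a mean distance of 90.8 in log2 CPM over all genes tested against 72.0 to 80.7 for the others.

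Levels are given as CPM, with library sizes scaled by TMM factors, and they are compared between libraries for a gene and not between genes, since no transcript lengths of the build of the files were used. In whole glands, fewer cells of a type and less RNA per cell cannot be told apart. The ranges of the 3 nicotine and 3 control libraries overlapped for each of the 9 genes but Tet1, as the plot of levels by library shows.

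**Figure D1:**
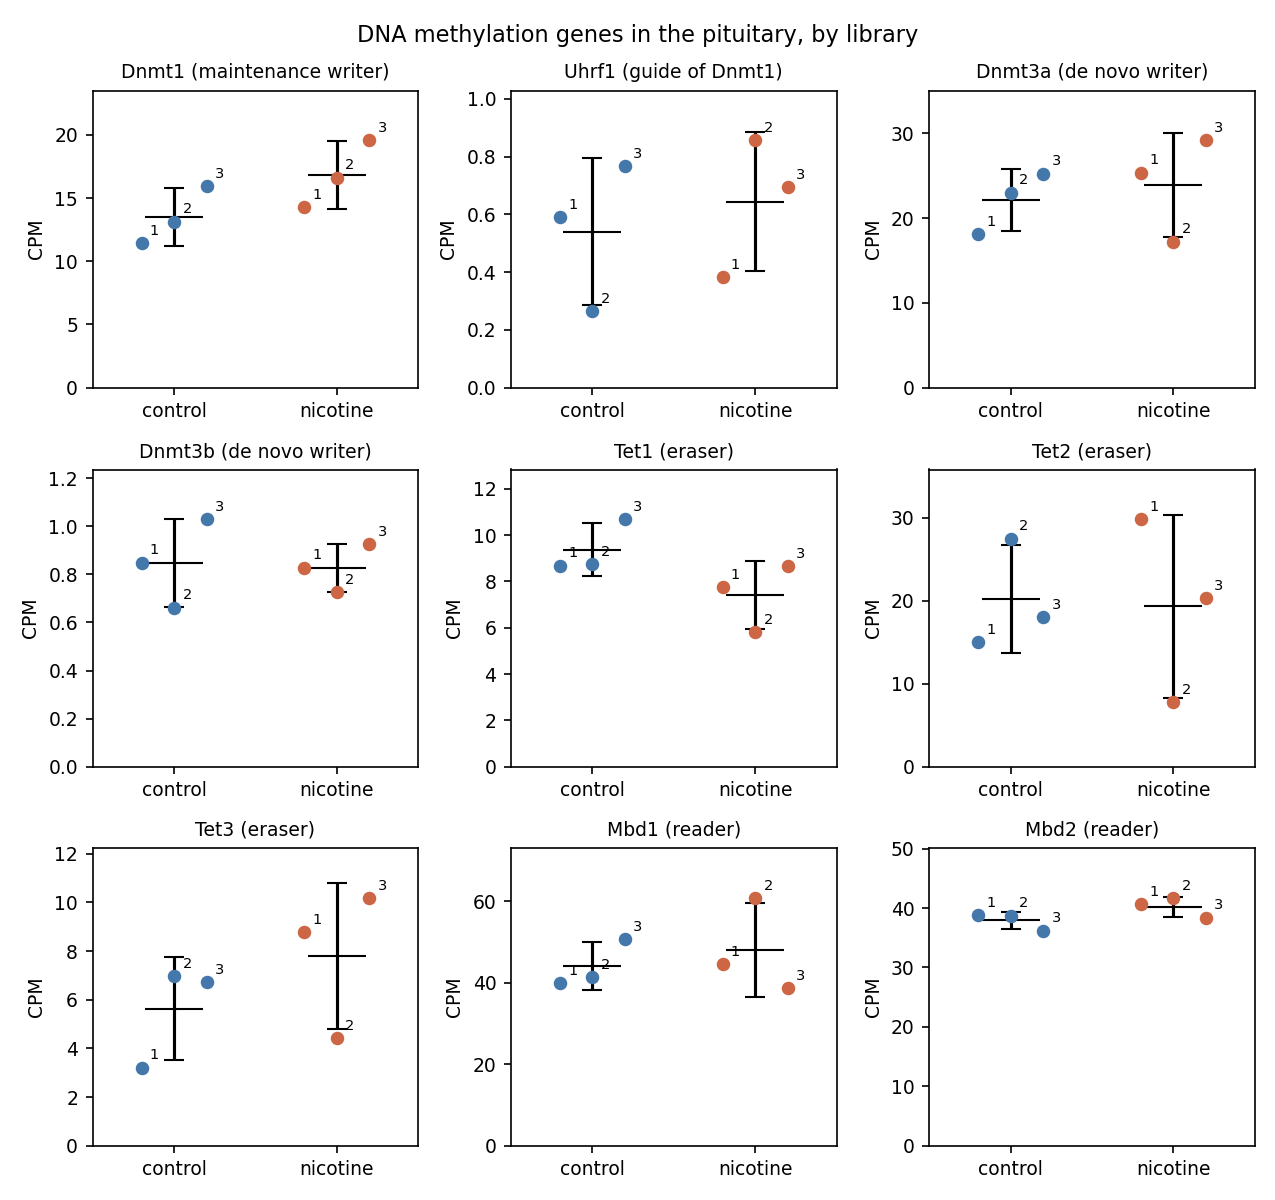
CPM of the 9 genes (vertical axis, from 0) in the 3 control and 3 nicotine libraries. Points are libraries with their replicate numbers, and bars give the mean and SD of each group (n = 3). The points of the groups overlap for each gene but Tet1, whose 3 nicotine libraries lie at or below 8.67 CPM and whose 3 control libraries lie at or above 8.68 CPM.

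Dnmt1, the maintenance methyltransferase, was at 14.3, 16.6 and 19.6 CPM in nicotine replicates 1, 2 and 3 and at 11.4, 13.1 and 16.0 CPM in control replicates 1, 2 and 3. The highest library was a nicotine library and both of the lowest were controls, but control replicate 3 lay above nicotine replicate 1. The group means were 16.8 ± 2.68 CPM for nicotine and 13.5 ± 2.29 CPM for control (SD, n = 3), and the log2 fold change was 0.32 (SE 0.20, 95% interval -0.12 to 0.75, edgeR adjusted p = 0.828). The interval ran from a 0.918-fold to a 1.69-fold level, so it held both no change and a change past the 1.5-fold threshold. Leaving out 1 library at a time gave log2 fold changes between 0.19 and 0.45.

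Uhrf1, the partner that brings DNMT1 to half-methylated DNA and is best known from dividing cells, was counted 14 to 79 times per library. It was at 0.382, 0.858 and 0.694 CPM after nicotine and at 0.591, 0.265 and 0.766 CPM in the controls, in replicate order. The groups overlapped through most of their range, with 1 low library in each, nicotine replicate 1 and control replicate 2. The log2 fold change of 0.38 (SE 0.48, 95% interval -0.67 to 1.44, edgeR adjusted p = 0.889) had the widest interval of the 9 genes, and without control replicate 2 it was -0.04. The summed level of 18 genes of cycling cells, such as Mki67, Top2a and the Mcm2 to Mcm7 helicase, was 235, 302 and 221 CPM after nicotine and 265, 232 and 277 CPM in the controls. The largest parts of this sum were Tyms and Pcna, with means of 70.0 and 51.7 CPM over all libraries. Mki67 and Top2a added little to it, with means of 1.68 and 2.59 CPM. None of these 18 genes had an unadjusted p under 0.05. From the library with the most Uhrf1, nicotine replicate 2, to the one with the least, the sums were 302, 277, 221, 265, 235 and 232 CPM. Nicotine replicate 3, with Uhrf1 at 0.694 CPM, had the smallest sum, and the other libraries stood in the same order by both. The part of cycling cells in the levels of Uhrf1 was not tested.

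Dnmt3a, the de novo methyltransferase most studied in differentiated and neural tissue, was at 25.4, 17.2 and 29.2 CPM after nicotine and at 18.1, 23.0 and 25.2 CPM in the controls. Both the lowest and the highest library were nicotine libraries, and the control range lay wholly inside the nicotine range. The log2 fold change was 0.11 (SE 0.22, 95% interval -0.37 to 0.59, edgeR adjusted p = 0.934), and leaving out nicotine replicate 2 or 3 gave 0.29 or -0.06. Dnmt3b, the de novo enzyme best known from early embryos and stem cells, was counted only 23 to 67 times per library. Its levels were 0.827, 0.727 and 0.925 CPM after nicotine and 0.849, 0.662 and 1.03 CPM in the controls, so that the nicotine range lay inside the control range. The log2 fold change of -0.02 (SE 0.34, 95% interval -0.78 to 0.73, edgeR adjusted p = 0.992) changed sign with the library left out.

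For Dnmt3b and Uhrf1 the counting error alone was large, a coefficient of variation of 12.2% to 20.9% per library for Dnmt3b and 11.3% to 26.7% for Uhrf1. The other 7 genes had 87 to 5605 counts per library and a counting error of 1.34% to 10.7%.

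Tet1, an eraser with a CXXC domain that binds unmethylated CpG, was at 7.74, 5.81 and 8.67 CPM after nicotine and at 8.68, 8.76 and 10.7 CPM in the controls. It was the one gene of the 9 whose groups did not overlap, with all 3 nicotine libraries below all 3 controls, though the nearest libraries, nicotine replicate 3 and control replicate 1, differed only in the third digit. Of all 17292 genes tested, 1946 (11.3%) had groups that did not overlap, so 1 of 9 is near the share over all genes. The means were 7.41 ± 1.46 CPM for nicotine and 9.38 ± 1.14 CPM for control, with a log2 fold change of -0.34 (SE 0.22, 95% interval -0.83 to 0.14, edgeR adjusted p = 0.829) and an exact two-sided permutation p of 0.1, the smallest that 3 against 3 can give. The lack of overlap fixes that permutation p, so it adds no separate support. For the other genes the permutation p was 0.2 to 0.9. The fold change kept its sign without any 1 library (-0.48 to -0.20), but with library sizes alone as scaling the highest nicotine library stood at 8.35 CPM and the lowest control at 8.30 CPM, and the groups overlapped.

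Tet2, the eraser that lacks the CXXC domain, had the widest range of the 9 genes. It was at 29.9, 7.80 and 20.3 CPM after nicotine and at 15.0, 27.5 and 18.02 CPM in the controls. The nicotine libraries held both the highest and the lowest value, 3.82-fold apart, while the controls were 1.83-fold apart. The difference in the means (19.3 ± 11.1 CPM for nicotine, 20.2 ± 6.51 CPM for control) was far smaller than this spread, with a log2 fold change of -0.07 (SE 0.40, 95% interval -0.95 to 0.80, edgeR adjusted p = 0.978). Leaving out nicotine replicate 1 gave -0.53, and leaving out nicotine replicate 2 gave 0.29.

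Tet3, the eraser known for oxidising the paternal genome in the zygote, was at 8.76, 4.43 and 10.2 CPM after nicotine and at 3.21, 6.98 and 6.71 CPM in the controls. Nicotine replicates 1 and 3 lay above all controls, and nicotine replicate 2 lay below control replicates 2 and 3. The means were 7.79 ± 3.00 CPM for nicotine and 5.63 ± 2.101 CPM for control, and the log2 fold change of 0.44 was the largest of the 9 genes in size (SE 0.35, 95% interval -0.34 to 1.22, edgeR adjusted p = 0.841). Without nicotine replicate 2 it was 0.71, with an unadjusted p of 0.0336 and an edgeR adjusted p of 0.701, and without control replicate 1 or nicotine replicate 3 it was 0.18 or 0.19. The direction of the difference was the same without any 1 library, and its size moved with these libraries.

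**Figure D2:**
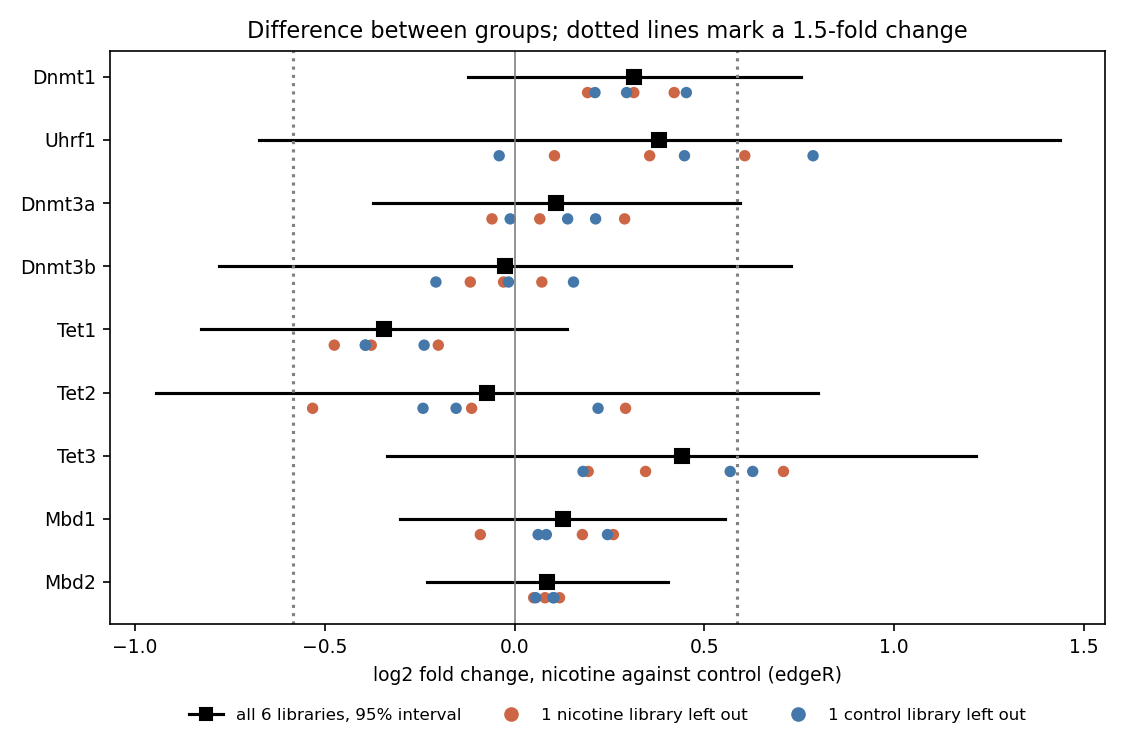
Log2 fold change of nicotine against control for the 9 genes (edgeR, horizontal axis). Squares and lines give the estimate and 95% interval from all 6 libraries, and the points beneath give the estimate with 1 library left out. All 9 intervals cross 0, the points of Tet2 spread from -0.53 to 0.29, and those of Mbd2 from 0.05 to 0.12.

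Mbd1, a reader that has CXXC domains beside its methyl-CpG-binding domain, was at 44.6, 60.8 and 38.7 CPM after nicotine and at 39.9, 41.4 and 50.8 CPM in the controls. Nicotine replicate 2 was the highest of all libraries and nicotine replicate 3 the lowest. The log2 fold change was 0.13 (SE 0.19, 95% interval -0.30 to 0.55, edgeR adjusted p = 0.910), and it was -0.09 without nicotine replicate 2. Mbd2, the reader that joins the NuRD remodelling complex to methylated DNA, was at 40.6, 41.7 and 38.4 CPM after nicotine and at 38.8, 38.7 and 36.2 CPM in the controls. It varied least of the 9 genes, with its highest library 1.15-fold above its lowest. The log2 fold change was 0.09 (SE 0.14, edgeR adjusted p = 0.920), and its 95% interval, -0.23 to 0.40, was the narrowest of the 9 and stayed inside a 1.5-fold change in either direction. The interval of Mbd1 also stayed within that limit, and those of the other 7 genes did not.

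Of the 9 genes, edgeR called 0, as it did of all genes (0%), where a call needed both a change of more than 1.5-fold and a Benjamini-Hochberg adjusted p below 0.1. At an unadjusted p under 0.05 it passed 0 of the 9, against 1062 of all genes (6.14%). DESeq2 called 0 of the 9 and 62 of 17876 genes (0.347%), and limma voom 0 of the 9. The fold change was above 0 for 6 of the 9 genes and for 8824 of the 17292 genes tested, and its median was 0.11 on the log2 scale over the 9 and 0.01 over all genes. By role, 3 of the 4 genes of the writing machinery, 1 of the 3 erasers and both readers had estimates above 0, none of them past the threshold.

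The biological spread between rats of a group was estimated by edgeR, and the estimates were unequal over the 9 genes. Each estimate is drawn toward the trend of genes of like abundance, so it is not the spread measured between these rats. For Mbd2 the measured means and SDs were 40.2 ± 1.67 CPM for nicotine and 37.9 ± 1.48 CPM for control. The biological coefficient of variation was 15.0% for Mbd2, 18.6% for Dnmt1, 18.7% for Mbd1, 20.2% for Dnmt3a and 20.5% for Tet1, all below the 20.8% that was the median of all genes. It was 29.5% for Dnmt3b, 31.3% for Tet3, 34.2% for Tet2 and 39.4% for Uhrf1. Tet2 and Tet3 therefore had high estimates with at least 406 and 87 counts in every library, whereas Dnmt3b and Uhrf1 had few counts.

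Nicotine replicate 2 had the lowest value of 3 of the genes (Dnmt3a, Tet1 and Tet2) and the highest of 3 others (Uhrf1, Mbd1 and Mbd2), as the plot of deviations from the mean shows. In that library 8 posterior lobe markers (Rax, Lhx2, Gfap, Aqp4, Slc1a3, Col25a1, Avp and Oxt) summed to 349 CPM, the most of any library. The most abundant of these markers was Slc1a3, with a mean of 85.0 CPM over all libraries. In nicotine replicate 2, 7 fibroblast and meningeal markers (such as Col1a1 and Dcn) summed to 345 CPM, the least of any library. The part of these cells in the values of the 9 genes was not tested.

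**Figure D3:**
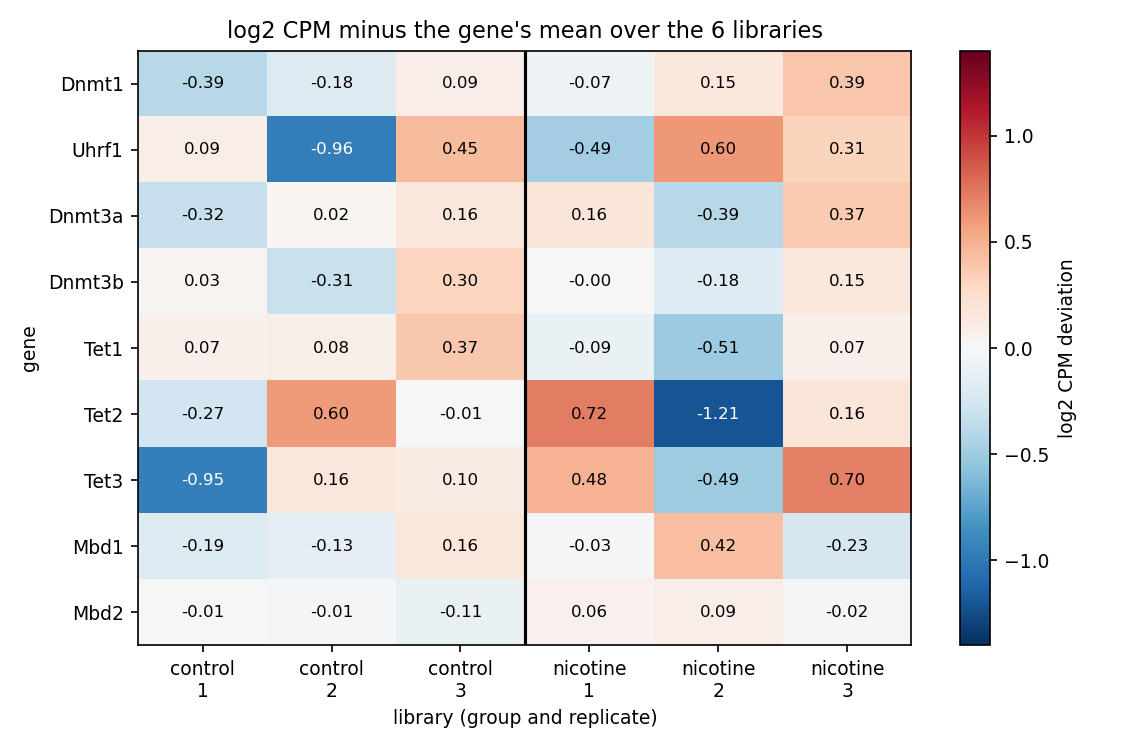
Deviation of each gene's log2 CPM (prior count of 2) from its mean over the 6 libraries, with genes in rows and libraries in columns, red above and blue below the mean. The deepest colours are those of Tet2 in nicotine replicate 2 (-1.21), Uhrf1 in control replicate 2 (-0.96) and Tet3 in control replicate 1 (-0.95), and the row of Mbd2 stays between -0.11 and 0.09.

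Among the 36 pairs of the 9 genes, Pearson's r of log2 CPM over the 6 libraries ran from -0.95 to 0.93, with 18 pairs above and 18 below 0. The highest was that of Dnmt3a and Tet3 (0.93), whose lowest libraries were nicotine replicate 2 and control replicate 1 in both genes, in opposite order. Dnmt3a also followed Tet2 (0.72), and the partners Dnmt1 and Uhrf1 had an r of 0.52. The lowest were those of Tet1 with Mbd2 (-0.95) and of Tet2 with Uhrf1 (-0.77). These are descriptions over 6 libraries that share their scaling and their groups. Among all genes tested, 45 followed Dnmt3a with an r over 0.95, led by Dnhd1 and Mllt6, and 83 followed Tet3, led by Taf8 and Trim8. The genes most like Dnmt1 were Epb41l1 and Cacna1b, those most like Tet1 were Slc22a6 and Chia, and those most like Tet2 were Epha5 and LOC102551819. For Mbd1, with 211 genes over that r, Hinfp and Xpo4 led, for Mbd2 Lrrc9 and Tmub2, for Dnmt3b Mrps25 and Renbp, and for Uhrf1 Ecd and Rhbdd3. The number of genes over that r ran from 10 for Dnmt3b and 17 for Mbd2 to the 211 for Mbd1. How many unrelated genes would pass it over 6 libraries was not estimated, so these counts and names are descriptions only.

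The wider pathway was described with 80 further genes in 6 lists, of which 62 were tested. Of the 62, 38 had estimates above 0 and 24 below, and the median log2 fold change was 0.04. None was called by edgeR or by DESeq2, and 1 (Gatad2a) had an unadjusted edgeR p under 0.05, against the 6.14% over all genes. The groups did not overlap for 5 of the 62, against the 11.3% over all genes, namely Ehmt1, Mbd5 and Gatad2a with nicotine above control, and Mat2b and Gnmt with nicotine below control. Gnmt was named after its values were seen.

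**Figure D4:**
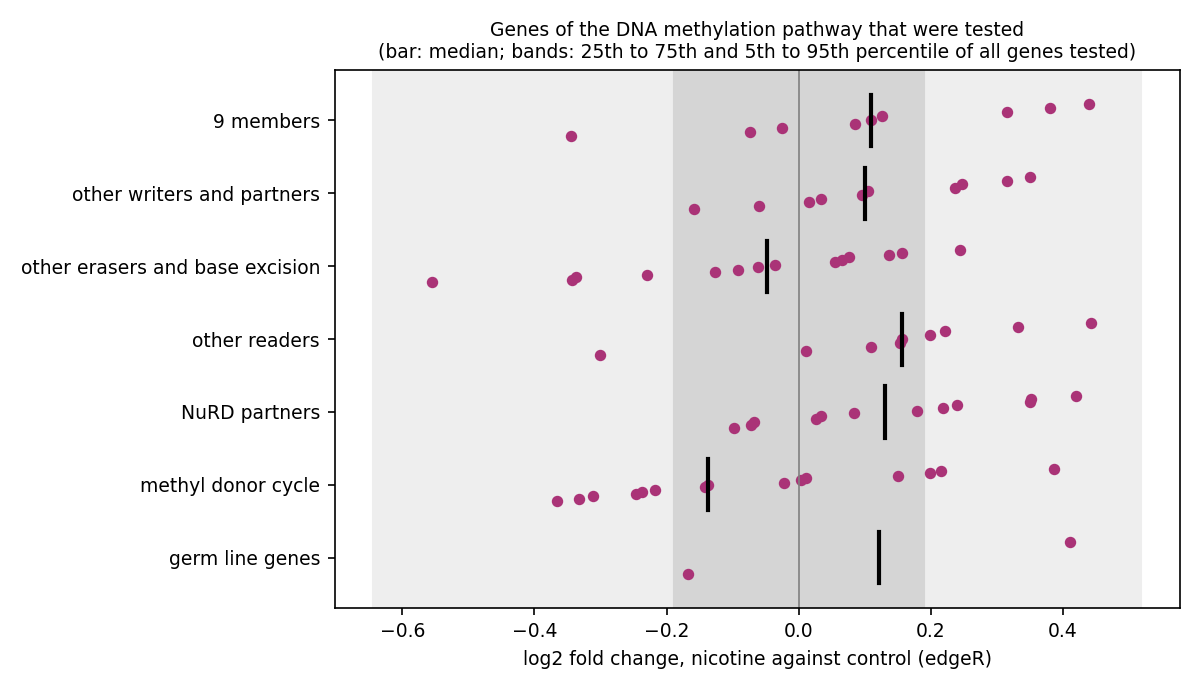
Log2 fold change (edgeR, horizontal axis) of each tested gene of the 9 described here and of 6 lists of the pathway. Black bars are medians, and the grey bands hold the 25th to 75th and the 5th to 95th percentile of all 17292 genes tested (-0.19 to 0.19, and -0.64 to 0.52). All points lie within the wider band, and the medians run from -0.14 to 0.16.

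Among the other writers and their partners 10 of 11 genes were tested, 8 above and 2 below 0, with a median log2 fold change of 0.10. Ehmt1, a histone H3 lysine 9 methyltransferase, was at 22.7, 25.5 and 24.0 CPM after nicotine and at 18.02, 18.9 and 21.1 CPM in the controls (log2 fold change 0.32, SE 0.16, edgeR adjusted p = 0.813). Its partner enzyme Ehmt2 had a log2 fold change of 0.25 (SE 0.19) with groups that overlapped, and one of 0.049 without nicotine replicate 2. Trim28, the corepressor that silences imprinted and retroviral sequences and the most abundant by CPM of the list, was at 133, 235 and 133 CPM after nicotine and at 134, 132 and 161 CPM in the controls, so that its log2 fold change of 0.24 (SE 0.23) rested on nicotine replicate 2 and became -0.10 without it. Dppa3, a factor of oocytes and early embryos, was not tested, at 0 to 4 counts per library.

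Among the other erasers and base excision genes all 14 were tested, 6 above and 8 below 0, with a median of -0.05. Gadd45b, a stress gene linked to active demethylation, was at 4.39, 3.89 and 6.06 CPM after nicotine and at 8.97, 5.81 and 6.42 CPM in the controls, with overlapping groups and the largest change in size of the 62 (log2 fold change -0.56, SE 0.26, edgeR adjusted p = 0.807). Apex1, the endonuclease of base excision repair, had a log2 fold change of -0.34 (SE 0.18), and Cxxc5, a CXXC protein, one of 0.08 (SE 0.17). Of the other readers 9 of 11 were tested, 8 above and 1 below 0, with a median of 0.16. Zbtb38, a zinc finger reader of methylated DNA, had a log2 fold change of 0.44 (SE 0.24), Mbd5 one of 0.33 (SE 0.20) and Mbd3, the NuRD subunit related to MBD2, one of 0.11 (SE 0.15), with edgeR adjusted p-values of 0.816, 0.824 and 0.898. Mbd3l1 and Mbd3l2 had 0 counts in every library.

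All 12 genes of the NuRD complex, which MBD2 recruits, were tested, 9 above and 3 below 0, with a median of 0.13. Gatad2a, a subunit that binds MBD2 in NuRD, was at 44.7, 49.0 and 42.4 CPM after nicotine and at 32.9, 34.03 and 34.9 CPM in the controls, every nicotine library above every control. Its log2 fold change was 0.42 (SE 0.15), with an unadjusted p of 0.0156 and an edgeR adjusted p of 0.762, which missed the threshold. Chd4, the remodelling ATPase, was at 155, 171 and 143 CPM after nicotine and at 101, 118 and 149 CPM in the controls (log2 fold change 0.35, SE 0.18, edgeR adjusted p = 0.813), and Rbbp7, a histone chaperone subunit, had a log2 fold change of -0.10 (SE 0.17).

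Of the genes that supply the methyl donor S-adenosylmethionine or clear its product, 15 of 16 were tested, 6 above and 9 below 0, with a median of -0.14. Mat2b, the regulatory subunit of methionine adenosyltransferase, was at 70.1, 67.0 and 70.5 CPM after nicotine and at 102, 76.6 and 79.0 CPM in the controls, every nicotine library below every control (log2 fold change -0.31, SE 0.16, edgeR adjusted p = 0.813). Amd1, which decarboxylates S-adenosylmethionine, had a log2 fold change of -0.14 (SE 0.19), with overlapping groups. Of 16 germ line genes that promoter methylation is known to silence in body cells, 14 failed the filter, 5 of them (Ddx4, Sycp1, Taf7l, Stk31 and Slc25a31) at 0 counts in all libraries, which allows up to 0.0326 to 0.111 CPM per library by a limit of 3 counts. The other 9 had at most 16 counts in any library. Mov10l1 was tested at 1.63, 1.99 and 1.83 CPM after nicotine and 1.48, 1.65 and 0.977 CPM in the controls (log2 fold change 0.41, SE 0.30). Rpl10l, an intronless copy of a ribosomal protein gene whose reads may not be told apart from those of its parent, had a log2 fold change of -0.17 (SE 0.32).

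Genes of several marker lists of other cells passed an unadjusted p. The summed levels of the groups overlapped for most of these lists, all but fibroblasts and meninges, and lymphocytes. At an unadjusted edgeR p under 0.05, 5 of 8 posterior lobe genes (summed level 169 to 349 CPM after nicotine and 82.6 to 182 CPM in the controls), 5 of 7 endothelial genes (192 to 318 against 154 to 203 CPM) and 3 of 7 smooth muscle genes (57.4 to 224 against 52.6 to 66.5 CPM) were higher after nicotine. The smooth muscle sum of 224 CPM was that of nicotine replicate 3 alone, and nicotine replicates 1 and 2 had 77.1 and 57.4 CPM. Tagln, the most abundant gene of that list, had 54.6 ± 72.2 CPM after nicotine and an unadjusted edgeR p of 0.123. Lower were 6 of 7 fibroblast and meningeal genes (345 to 815 against 892 to 1047 CPM), 2 of 7 macrophage genes (152 to 315 against 248.9 to 342 CPM), 5 of 5 tested neutrophil genes (20.8 to 22.9 against 6.54 to 134 CPM, where control replicate 2 lay below every nicotine library), 4 of 7 tested lymphocyte genes (7.73 to 10.8 against 11.7 to 24.1 CPM) and 5 of 7 erythroid genes (3343 to 10657 against 8812 to 17643 CPM). No gene of 6 for stem and folliculostellate cells and 1 of 7 hormone genes passed that p. No marker of these lists was at 0 in all libraries, edgeR called none of them at the adjusted threshold and DESeq2 called 1, of smooth muscle. Their part in the levels of the 9 genes was not tested.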

How the data were processed

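The authors sequenced stranded libraries of total RNA as paired 100 bp reads, mapped them with HISAT2 2.1.0 to rn7 and deposited raw counts per gene symbol from featureCounts, per the labels and methods. Whether single reads or pairs were counted is not given in the sources used here. Strand was kept in the libraries, but the counting setting is not stated, so antisense overlap cannot be judged. Totals per library were 28318383 to 85977002 counts.

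Counts were analysed in R 4.3.3 with edgeR 4.0.16. Of 24546 genes with a count, filterByExpr kept 17292, libraries were scaled by TMM, and the 3 nicotine and 3 control libraries were compared by the quasi-likelihood test without a covariate, with Benjamini-Hochberg adjustment over all genes tested. Calls needed an adjusted p below 0.1 with a change of more than 1.5-fold, as in the study's own methods. SDs are over 3 rats. Log2 CPM (prior count of 2) of each gene were set against all other assignments of the 6 libraries in an exact permutation test, two-sided. DESeq2 1.42.0, limma 3.58.1 (voom), other scalings and filters, thinning, a block and leaving out each library were alternatives. Counting errors cover counting only.

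The members and lists were chosen with earlier results of these data known. Named in each related list are called genes, the 2 with the smallest p and the most abundant, and for each member the 2 genes with the highest r. A gene that this rule would name is not reported here. Promoters are from RefSeq, GRCr8, 250 bases before to 50 after the start, and were not placed on rn7. Figures were drawn with matplotlib 3.10.9.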

Additional observations from a re-analysis of the deposited data

How the results depend on the processing

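No alternative called any of the 9 genes or of the 62 related genes. Of 144 estimates for the 9 genes under alternatives, 134 kept their direction and 10 reversed. With 1 library left out, Dnmt3a ran from -0.059 (without nicotine replicate 3) to 0.29 and was also below 0 without control replicate 1 (-0.011). Dnmt3b ran from -0.21 to 0.16 and was above 0 without control replicate 3 (0.16) and nicotine replicate 2 (0.072), with voom (0.14) and with library sizes alone (0.020). Tet2 ran from -0.53 to 0.29 and was above 0 without nicotine replicate 2 (0.29) and control replicate 2 (0.22). Uhrf1 ran from -0.041 (without control replicate 2) to 0.79, and Mbd1 from -0.090 (without nicotine replicate 2) to 0.26. Without nicotine replicate 2, Zbtb38 was 0.21, Cxxc5 0.011 and Rbbp7 -0.23. Thinning to the smallest library moved Dnmt3b to -0.30 and Uhrf1 to 0.061. Of 272 estimates for the named related genes 3 reversed, Trim28 (range -0.10 to 0.38, lowest without nicotine replicate 2), Amd1 (-0.29 to 0.00049, highest without control replicate 3) and Rpl10l (-0.47 to 0.25, highest without control replicate 1). The cause was not tested. Over all genes 0 were called, against 62 with DESeq2 (19 higher, 43 lower), 1 with voom, 1 with library sizes alone, 2 without a filter, and 0 to 9 with 1 library left out (1 without nicotine replicate 2, 9 without nicotine replicate 3 and 4 without control replicate 2).

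With the replicate number as a block (replicate block), 2 genes and 0 of the 9 were called, and Tet2 moved to -0.20. Deviations of same-numbered libraries correlated at 0.03, -0.20 and -0.08. With 3 libraries per group these values cannot show whether same-numbered libraries shared a batch. The main comparison took the numbers as names only. The count of 1 gene without overlap (Tet1) was 1 with RLE scaling, 0 with library sizes alone, 0 with genes over 1% of counts left out and 2 (Tet1 and Dnmt3b) after thinning, alternatives chosen after seeing the data. No scaling moved the median of all genes by over 0.1. An order of the 9 genes by level per length, and its alternatives, was not run. With 3 rats per group, a 1.5-fold change lay inside the 95% interval of 7 of the 9 genes.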
